A study of Mus musculus with 12 samples.

Results

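The interferon-stimulated genes described here are Ifit1, Ifit3, Isg15, Irf7, Oasl2, Rsad2, Ifi44, Usp18 and Bst2, the 9 of 46078 genes in the count table whose symbol matched a list of genes that interferon is known to induce. They were measured by RNA-seq in the skin epidermis of newborn mice, in 12 libraries that fall into 4 groups of 3. All mice carried K14-Cre, a transgene that drives Cre recombinase in basal keratinocytes, so deletion was directed to keratinocytes and not to the immune or other cells of the tissue. Llgl cKO Trp53 het mice were Llgl1/2 flox/flox and also Trp53 +/flox, and thus had floxed alleles of both Llgl genes and a single floxed Trp53 allele. Llgl cKO mice were Llgl1/2 flox/flox, Trp53 het mice were Trp53 +/flox, and control mice carried K14-Cre alone. Llgl1 and Llgl2 are the mammalian homologues of a Drosophila polarity gene and tumour suppressor, and the design asks how their loss, with and without loss of a Trp53 allele, changes epidermal transcripts. Libraries held 6738720 to 14509507 counts, so that a single count was worth 0.0687 to 0.164 CPM (counts set on a common scale of library size, after scaling by the trimmed mean of M values).

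Interferons are secreted proteins that warn cells of viruses and other danger. Type I interferons signal through the receptor chains Ifnar1 and Ifnar2 and the kinases Jak1 and Tyk2 to a transcription factor complex that contains Irf9 and binds a DNA element called the interferon-stimulated response element. Type II interferon, encoded by Ifng, acts through the receptor chains Ifngr1 and Ifngr2. Epithelial cells such as keratinocytes keep low tonic levels of many of the target transcripts without infection. Among the 9 genes, Irf7 encodes the transcription factor that amplifies type I interferon production. Ifit1, Ifit3, Rsad2 (viperin), Oasl2 and Bst2 (tetherin) encode antiviral effectors. Isg15 is a ubiquitin-like protein that is attached to other proteins, Usp18 removes it and also dampens signalling at Ifnar2, and Ifi44 is an interferon-induced protein of less certain function.

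The sequences of the promoters show which of the 9 genes carry the response element close to their start. RefSeq promoter windows on GRCm38.p6, from 250 bases before to 50 bases after each gene's start, were matched for 8 genes, all but Usp18. The element was searched as GAAANNGAAA, or TTTCNNTTTC when read on the opposite strand, and overlapping matches were counted separately. It was found in the windows of 5 of the 8 genes (Isg15, Bst2, Ifit3, Ifit1 and Rsad2) and in 3.44% of all 32851 windows. The stretches that hold it are printed 5′ to 3′ on the strand of the gene, in lower case with every matching base in capitals, and the 100 bases before the RefSeq start of Irf7, which hold no match, are printed for comparison. RefSeq starts can differ from the GENCODE positions given below. For Irf7, on the minus strand, the GENCODE gene begins at 141266481, so part of the printed stretch lies within it.
Isg15, chr4:156200860-156200911, - strand: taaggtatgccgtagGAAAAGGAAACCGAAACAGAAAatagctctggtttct
Bst2, chr8:71537572-71537617, - strand: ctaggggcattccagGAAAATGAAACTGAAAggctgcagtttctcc
Ifit3, chr19:34583358-34583431, + strand: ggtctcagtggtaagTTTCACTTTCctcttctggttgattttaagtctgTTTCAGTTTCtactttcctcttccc
Ifit1, chr19:34640770-34640828, + strand: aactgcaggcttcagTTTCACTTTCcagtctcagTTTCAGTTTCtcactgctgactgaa
Rsad2, chr12:26456548-26456587, - strand: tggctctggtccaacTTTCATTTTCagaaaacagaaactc
Irf7, chr7:141266425-141266524, - strand: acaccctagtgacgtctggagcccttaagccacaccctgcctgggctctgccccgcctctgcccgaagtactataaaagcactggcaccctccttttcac
In Isg15 and Bst2 the matches overlapped to form a continuous run, whereas Ifit3 and Ifit1 each had a pair of separate matches with the same letters. The windows of Irf7, Oasl2 and Ifi44 held no match, which says only that these letters were not in those 300 bases. The motif TTCNNNGAA, a form of the gamma-activated sequence of interferon gamma targets, was found in the window of Bst2 alone among the 8 genes and in 8.3% of all windows. A match is a description of the sequence and was not measured as binding here.

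All 9 transcripts were present in the epidermis, and 8 of them were near the limit of the sequencing depth. Irf7 (ENSMUSG00000025498, chromosome 7, 141262706 to 141266481, minus strand) contributed 4544 counts over the 12 libraries, between 95 and 708 per library. Bst2 (ENSMUSG00000046718, chromosome 8, 71534255 to 71537456, minus strand) came next with 363 counts in all and 23 to 42 per library. Oasl2 (ENSMUSG00000029561, chromosome 5, 114896936 to 114912234, plus strand) had 197 counts and Isg15 (ENSMUSG00000035692, chromosome 4, 156199424 to 156200818, minus strand) had 162. All of the 9 genes except Ifi44 were counted in every library, Oasl2 and Isg15 at as few as 4 counts.

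The remaining 5 genes had 23 to 68 counts each over all libraries. Usp18 (ENSMUSG00000030107, chromosome 6, 121245906 to 121270917, plus strand) had 68 counts and Ifit3 (ENSMUSG00000074896, chromosome 19, 34583531 to 34588731, plus strand) had 63. Rsad2 (ENSMUSG00000020641, chromosome 12, 26442746 to 26456452, minus strand) had 53 counts and Ifit1 (ENSMUSG00000034459, chromosome 19, 34640871 to 34650009, plus strand) had 52. Ifi44 (ENSMUSG00000028037, chromosome 3, 151730922 to 151749960, minus strand) had 23 counts and was at 0 in 3 libraries. A library in which a gene had 0 counts allows a level of up to 0.206 to 0.491 CPM, the worth of 3 counts, which covers counting error only. Coordinates are those of GRCm38.

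Per kilobase of exon, Irf7 was the highest of the 9 genes at 8.51 ± 3.64 CPM per kb (mean ± SD over 12 libraries). Bst2 followed at 3.17 ± 1.45 CPM per kb and Isg15 at 1.67 ± 1.07 CPM per kb. The ranges of neighbours in this order overlapped: Irf7 ran from 4.11 to 16.5 CPM per kb and Bst2 from 1.86 to 7.06, and in control 1, where Irf7 was lowest, Bst2 was highest. Ifit3 and Oasl2 lay together at 0.293 ± 0.222 and 0.249 ± 0.171 CPM per kb, and Usp18 and Ifit1 at 0.187 ± 0.0828 and 0.167 ± 0.132 CPM per kb. Rsad2 at 0.098 ± 0.0827 and Ifi44 at 0.029 ± 0.0313 CPM per kb were at the bottom. None of the neighbours among the lowest 6 genes differed beyond their spread. Irf7 shares 45 of its 3776 exonic bases with the end of Phrf1, a gene on the opposite strand with a mean of 113 CPM, and Ifit3 has the near-identical neighbour Ifit3b. The strand setting and the treatment of shared reads are not given in the sources used here, so reads from those stretches may have been split or lost.

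Before the results, 2 libraries need naming. Control 3 and Trp53 het 3 stood apart from the other libraries of their groups in transcripts of other cell types. Their fibroblast markers had a mean log2 CPM, centred over the 12 libraries, of 1.06 in Trp53 het 3 and 0.67 in control 3, against -1.52 to -0.41 in Trp53 het 1 and 2 and control 1 and 2. Hair shaft and inner root sheath genes were at 0.47 in Trp53 het 3 and -0.02 in control 3, against 1.56 to 2.07 in those 4 libraries. The library labelled Trp53 het 3 also had 115 CPM of Trp53, against 61.8 and 60.9 CPM in Trp53 het 1 and 2 and 109 to 130 CPM in control libraries. Llgl2 was at 6.12 to 12.4 CPM in the libraries of the 2 Llgl cKO groups, against 65.4 to 110 CPM in Trp53 het and control libraries. Llgl1 was not lower but higher, at 187 to 280 CPM in the Llgl cKO groups against 115 to 173 CPM in the others (averaged log2 fold change 0.79, edgeR adjusted p = 0.0072). Counts over the whole gene do not show whether the floxed exons were lost. Keratinocyte markers were high in every library, summing to 15300 to 21400 CPM for basal and 57900 to 111000 CPM for differentiated keratinocytes. Member results are also given without control 3 and Trp53 het 3 where a call changed. The hair genes that set these libraries apart were themselves lower with Llgl loss, 13 of 16 called. For those genes both libraries lay within the range of the Llgl cKO libraries, -0.52 to 1.08. Leaving them out thus removes reference libraries that resembled the Llgl cKO groups. This can enlarge the Llgl difference, so calls gained that way are not separate support.

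Irf7 was the only one of the 9 genes with higher levels in the Llgl cKO groups, and the other 8 had lower levels there. With Llgl loss averaged over the Trp53 genotypes (6 libraries against 6), the log2 fold changes in the model without a low-count filter were 0.73 for Irf7 and -1.75 to -0.44 for the other 8. Of the 9 genes 7 had an unadjusted p below 0.05 in that model, against 12.5% of the 25889 genes in it. Adjusted over all genes with the Benjamini-Hochberg method, 0 of the 9 were called at an adjusted p below 0.05 in edgeR's quasi-likelihood test, against 1.42% of all genes, and no member separated the 6 libraries from the other 6, against 1.62% of genes with a count. After the low-count filter 5 of the 9 genes remained for testing (Ifit3, Isg15, Irf7, Oasl2 and Bst2), and again 0 were called, against 3.33% of 14582 genes. The median log2 fold change of the 9 was -1.29, beside 0.01 over all genes. In bulk tissue, fewer cells of a type and less RNA per cell cannot be told apart.

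Irf7 was at 44.7, 43.3 and 37.3 CPM in Llgl cKO Trp53 het libraries 1 to 3 and at 18.1, 34.9 and 62.4 CPM in Llgl cKO libraries 1 to 3. It was at 21.2, 20.6 and 37.0 CPM in Trp53 het libraries and at 15.5, 23.8 and 26.8 CPM in control libraries. The 3 Llgl cKO Trp53 het libraries were tightly grouped, whereas Llgl cKO spanned almost the whole range of the study, with Llgl cKO 1 among the lowest libraries and Llgl cKO 3 the highest. Llgl cKO Trp53 het did not overlap with either group that kept Llgl. The averaged log2 fold change was 0.73 ± 0.27 (SE, 95% interval 0.13 to 1.33) and was not called (edgeR adjusted p = 0.18). Without control 3 and Trp53 het 3 it was 0.97 and was called (edgeR adjusted p = 0.049). In that smaller model, with the limit given above, 6 of the 7 members tested were called, against 15.8% of genes. Ifit1 and Rsad2 were among the 6. They passed the low-count filter there, and not with all 12 libraries, through libraries that kept Llgl and in which they were high.

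Oasl2, which encodes a protein of the oligoadenylate synthetase family, was the member nearest to a call. It was at 0.549, 0.769 and 0.335 CPM in Llgl cKO Trp53 het libraries and at 0.481, 1.09 and 1.94 CPM in Llgl cKO libraries. Trp53 het libraries had 2.77, 3.05 and 1.13 CPM, and control libraries had 2.62, 3.32 and 0.967 CPM. The 3 Llgl cKO Trp53 het libraries were below every Trp53 het and control library, and Llgl cKO overlapped with Trp53 het 3 and control 3 only. The averaged log2 fold change was -1.50 ± 0.43 (SE, 95% interval -2.45 to -0.55; edgeR adjusted p = 0.09). DESeq2 called it (adjusted p = 0.025), the only member it called, against 5.83% of genes, as did edgeR without control 3 (-1.70, adjusted p = 0.037) and without Trp53 het 3 (-1.68, adjusted p = 0.046).

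Rsad2 encodes the iron-sulphur enzyme viperin. It was at 0.235, 0.171 and 0.167 CPM in Llgl cKO Trp53 het libraries and at 0.137, 0.292 and 0.0881 CPM in Llgl cKO libraries. Trp53 het libraries had 0.646, 1.16 and 0.527 CPM, and control libraries had 0.491, 1.02 and 0.161 CPM. Of the 6 libraries that kept Llgl 5 were above every library of the Llgl cKO groups, and control 3 was the exception. For control 1, the shallowest library, this rests on scaling: it had 3 counts, against 4 in Llgl cKO 2. The averaged log2 fold change was -1.75 ± 0.51 (SE, 95% interval -2.83 to -0.67; edgeR without a filter, adjusted p = 0.11), from 14 counts in the Llgl cKO groups against 39 in Trp53 het and control. Without control 3 it was -2.00 and was called (edgeR adjusted p = 0.025). That model used the low-count filter, which Rsad2 did not pass with all 12 libraries. It passed there through Trp53 het 2 and control 2, libraries that kept Llgl and in which it was high. The adjusted p-values of 0.11 and 0.025 thus differ in filter as well as in libraries, and the call is not separate support.

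Ifit1 encodes a protein that binds foreign RNA ends, and in human cells the product of IFIT3 stabilises that of IFIT1. Ifit1 was at 0.0785, 0.256 and 0.167 CPM in Llgl cKO Trp53 het libraries, 0.206, 0.146 and 0.528 CPM in Llgl cKO, 0.554, 1.02 and 0.301 CPM in Trp53 het, and 1.14, 0.680 and 0.242 CPM in control libraries. Ifit3 was at 0.471, 0.0854 and 0.167 CPM in Llgl cKO Trp53 het libraries, 0.0687, 0.364 and 0.528 CPM in Llgl cKO, 0.554, 0.872 and 1.05 CPM in Trp53 het, and 1.31, 0.340 and 0.322 CPM in control libraries. Both were low in the Llgl cKO groups, and for both 4 of the 6 libraries that kept Llgl stood above every library of the Llgl cKO groups. The margin was narrow: for both genes the lowest of the 4, Trp53 het 1, and the highest Llgl cKO library, Llgl cKO 3, had 6 counts each. The 4 differed between the genes: control 2 was among them for Ifit1, and Trp53 het 3 for Ifit3. The averaged log2 fold changes were -1.44 ± 0.53 for Ifit1 (edgeR without a filter, adjusted p = 0.23) and -1.30 ± 0.55 for Ifit3 (adjusted p = 0.24). Without control 3 and Trp53 het 3, Ifit1 was at -1.85 and was called (edgeR adjusted p = 0.029), and Ifit3 was at -1.34 and was not (adjusted p = 0.18). Ifit1 passed the low-count filter in that model, through control 1 and Trp53 het 2, where it was high. Its adjusted p-values of 0.23 and 0.029 thus differ in filter as well as in libraries.

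Isg15 and its protease gene Usp18 differed in size of change. Isg15 was at 0.628, 0.512 and 1.17 CPM in Llgl cKO Trp53 het libraries, 0.550, 0.948 and 1.41 CPM in Llgl cKO, 2.40, 1.45 and 0.828 CPM in Trp53 het, and 2.13, 2.81 and 0.322 CPM in control libraries. Trp53 het 1 and 2 and control 1 and 2 were above all Llgl cKO and Llgl cKO Trp53 het libraries, and control 3 was the lowest of the 12. The margin was narrow at Trp53 het 2, a shallow library with 10 counts, against 16 counts in Llgl cKO 3. The averaged log2 fold change of Isg15 was -0.92 ± 0.49 (SE, edgeR adjusted p = 0.35), and with control 3 and Trp53 het 3 left out it was -1.36 and was called (adjusted p = 0.023). Usp18 ranged from 0.171 to 0.628 CPM in Llgl cKO Trp53 het, from 0.275 to 0.656 CPM in Llgl cKO, from 0.301 to 0.831 CPM in Trp53 het and from 0.322 to 0.818 CPM in control libraries. Its averaged log2 fold change of -0.44 had a 95% interval of -1.38 to 0.49 (edgeR without a filter, adjusted p = 0.78), so neither a fall of more than 2-fold nor a small rise was outside it.

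Bst2, which tethers budding virions to the cell membrane, had nearly equal levels in the 3 Llgl cKO Trp53 het libraries. It was at 2.35, 2.39 and 2.43 CPM in Llgl cKO Trp53 het libraries, 1.92, 1.68 and 2.55 CPM in Llgl cKO, 3.88, 3.34 and 2.03 CPM in Trp53 het, and 6.38, 3.57 and 1.85 CPM in control libraries. Again Trp53 het 1 and 2 and control 1 and 2 stood above all 6 libraries of the Llgl cKO groups, and Trp53 het 3 and control 3 lay within their range. The averaged log2 fold change was -0.63 ± 0.29 (SE, edgeR adjusted p = 0.28), and with control 3 and Trp53 het 3 left out it was -0.92 and was called (adjusted p = 0.019). Ifi44 had 4 counts over the Llgl cKO Trp53 het libraries, 2 over the Llgl cKO, 10 over the Trp53 het and 7 over the control libraries. The ratio of Llgl cKO to control, on the CPM scale, was 0.218 with an exact 95% interval of 0.0221 to 1.15 that covers counting error only, so a difference between those 2 groups was not detectable at this depth. Its averaged log2 fold change was -1.72 (95% interval -3.41 to -0.03; edgeR without a filter, unadjusted p = 0.047, adjusted p = 0.39), from 6 counts in the Llgl cKO groups against 17 in the others.

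**Figure D1:**
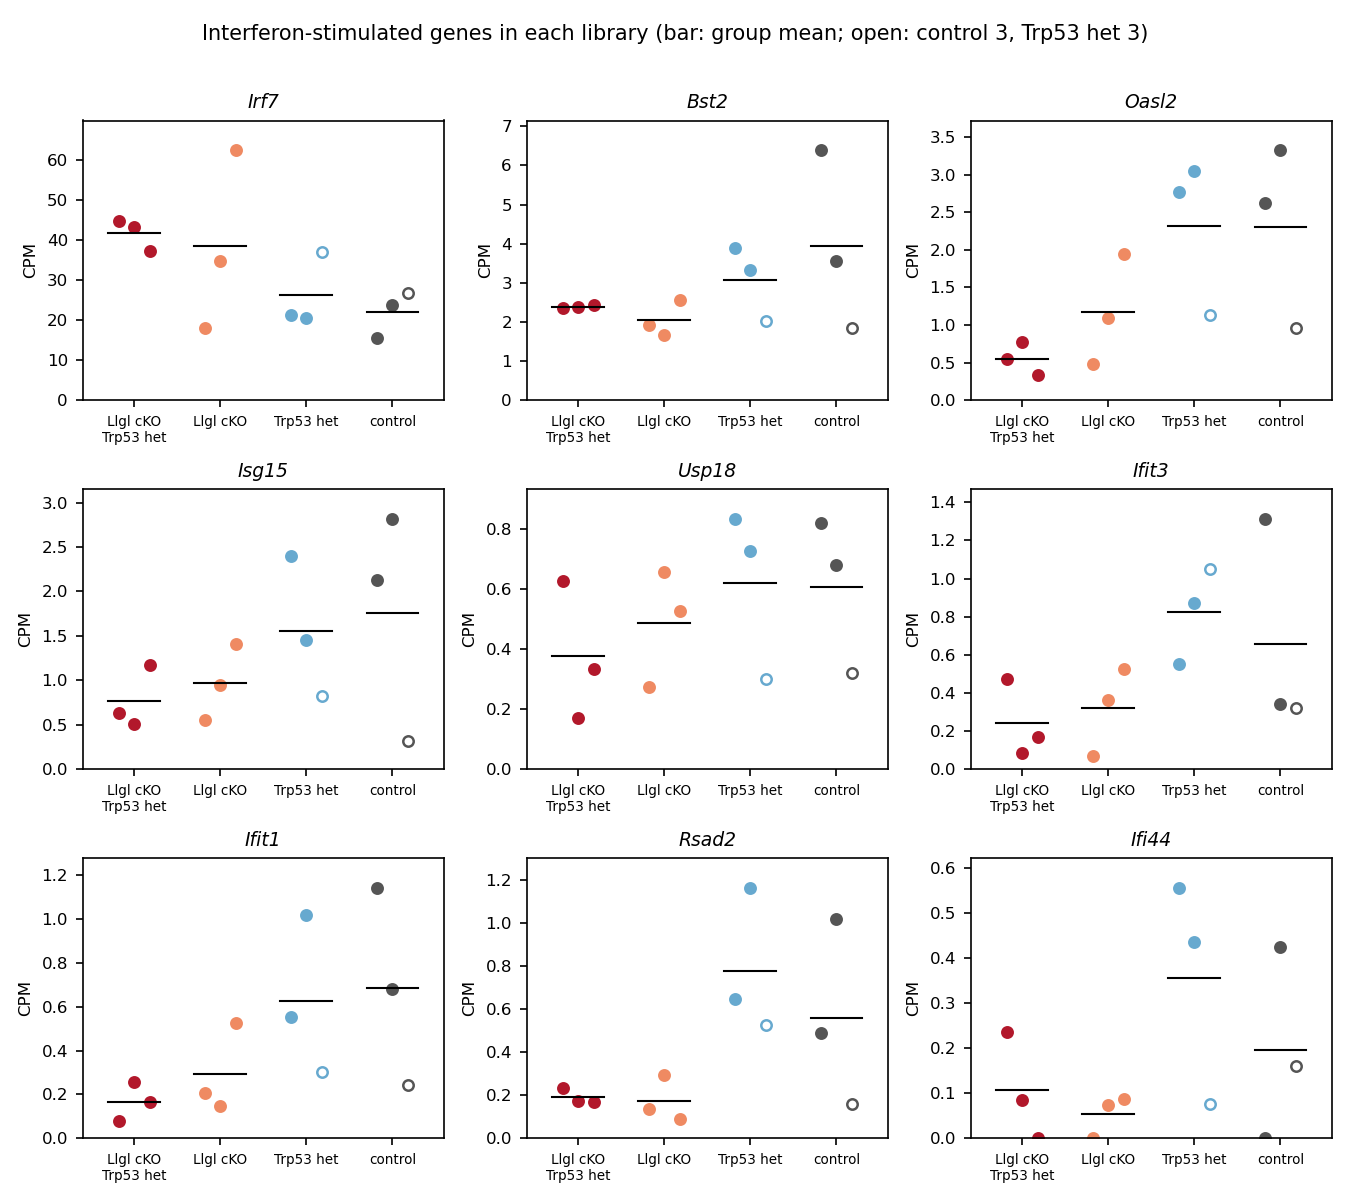
Levels of the 9 interferon-stimulated genes in CPM (linear axes from 0), with a point per library, a bar at the mean of each group of 3, and open points for Trp53 het 3 and control 3. Irf7 has its 3 Llgl cKO Trp53 het libraries at 37.3 to 44.7 CPM, above all Trp53 het and control libraries, while Oasl2 has them at 0.335 to 0.769 CPM, below all of those. For Bst2 both open points lie within the range of the 6 libraries of the Llgl cKO groups, and for Isg15 control 3, at 0.322 CPM, lies below them.

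The pairwise comparisons had the same directions for the 9 genes wherever Llgl genotype differed, and those that share a group are not independent of each other. In Llgl cKO Trp53 het against Trp53 het, 8 of the 9 genes were lower and Irf7 was higher, with a median log2 fold change of -1.54 in the model without a filter. The groups did not overlap for 5 of the 9 genes: Irf7 was higher and Ifit1, Ifit3, Oasl2 and Rsad2 were lower, in 3 of 3 libraries each, where 14.5% of all genes with a count did not overlap. For Ifit3 the nearest libraries, Llgl cKO Trp53 het 1 and Trp53 het 1, both had 6 counts, so that only scaling set them apart. For Ifit1 the nearest, Llgl cKO Trp53 het 2 and Trp53 het 3, had 3 and 4 counts. edgeR called 0 of the 5 members it tested after the filter, against 1.36% of genes, and 0 of 9 without the filter, against 0.622%. Unadjusted, 4 of the 9 had a p below 0.05, against 10.2% of genes, and DESeq2 called 0 of them, against 4.33% of genes. Oasl2 had the smallest p, with a log2 fold change of -2.02 ± 0.64 (SE, edgeR adjusted p = 0.15), followed by Rsad2 at -1.90 ± 0.71 (without a filter, adjusted p = 0.32). Without control 3 and Trp53 het 3, Oasl2 was at -2.38 and was called (edgeR adjusted p = 0.022), as 1 of the 7 members tested, against 7.37% of genes.

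In Llgl cKO Trp53 het against control, Irf7 was higher and Oasl2 lower without overlap, which is 2 of the 9 genes against 12.5% of all genes with a count. edgeR called 0 of 5 members after the filter, against 1.25% of genes, and 0 of 9 without it, against 0.548%. Unadjusted, 2 of the 9 had a p below 0.05, against 9.21% of genes, and DESeq2 called 0, against 3.88% of genes. Oasl2 had a log2 fold change of -2.03 ± 0.64 (SE, edgeR adjusted p = 0.17) and Irf7 of 0.91 ± 0.39 (adjusted p = 0.32). Without control 3 and Trp53 het 3, Oasl2 was at -2.42 and was called (edgeR adjusted p = 0.02), against 7.72% of genes. In Llgl cKO against control, 0 of the 9 genes separated the groups, against 8.04% of all genes with a count, and edgeR called 0 of 5 after the filter, against 0.226% of genes, and 0 of 9 without it, against 0.158%. There too 2 of the 9 had an unadjusted p below 0.05, against 4.52% of genes, and DESeq2 called 0, against 0.668% of genes. The log2 fold changes there were 0.79 for Irf7 and -0.98 for Oasl2, and that of Bst2, -0.90 ± 0.41, had the smallest p after the filter (edgeR adjusted p = 0.79). Single libraries moved these values: Irf7 was at 0.26 without Llgl cKO 3, Oasl2 at -1.52 without Llgl cKO 3, -0.59 without Llgl cKO 1 and -0.56 without control 2, and Bst2 at -0.40 without control 1. Without control 3 and Trp53 het 3, 6 of the 7 members tested had an unadjusted p below 0.05, against 16.8% of genes, with 0 called (2.8% of genes). Bst2 was then at -1.25 (adjusted p = 0.066), and the median was -1.38, against -0.87 over the 9 genes in the model without a filter.

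Loss of a Trp53 allele was not accompanied by a detectable difference in the 9 genes. Trp53 itself was not called in these comparisons either. Its log2 fold change was -0.61 in Trp53 het against control (edgeR unadjusted p = 0.024). The averaged Trp53 effect on it was also -0.61 (95% interval -0.97 to -0.25, edgeR unadjusted p = 0.0033). Trp53 het 3, named above, had a Trp53 level within the range of the control libraries, which limits what these comparisons can show. Trp53 het against control had 0 of 5 members called by edgeR, against 0% of genes, and 3 of the 9 genes were lower and 6 higher in the model without a filter, where 0 of the 9 had an unadjusted p below 0.05. The groups overlapped for all 9 genes, where 3.26% of genes with a count did not overlap. In Llgl cKO Trp53 het against Llgl cKO 0 of 5 members were called, against 0% of genes, with 0 of the 9 at an unadjusted p below 0.05, and again all 9 overlapped, where 8.54% of genes did not. The averaged Trp53 effect likewise had 0 of 5 called, against 0% of genes, and 0 of the 9 at an unadjusted p below 0.05. DESeq2 also called 0 members in these 3 comparisons, against 0.342% of genes in Llgl cKO Trp53 het against Llgl cKO and 0% in the other two. The 95% intervals of edgeR still left room for change: the averaged Trp53 effect on the log2 scale was 0.19 (-0.41 to 0.78) for Irf7 and -0.53 (-1.47 to 0.42) for Oasl2. The interaction, which asks whether the Llgl difference itself depends on Trp53, had 0 of 5 members called by edgeR and 0 by DESeq2, against 0% of genes by either, and 0 of the 9 at an unadjusted p below 0.05. For Oasl2, where the log2 fold change of Llgl cKO Trp53 het against Llgl cKO was -1.05 (adjusted p = 1), the interaction was -1.05 ± 0.86 (SE, edgeR adjusted p = 1), and the effects of Llgl loss with and without the Trp53 allele were therefore not shown to differ.

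**Figure D2:**
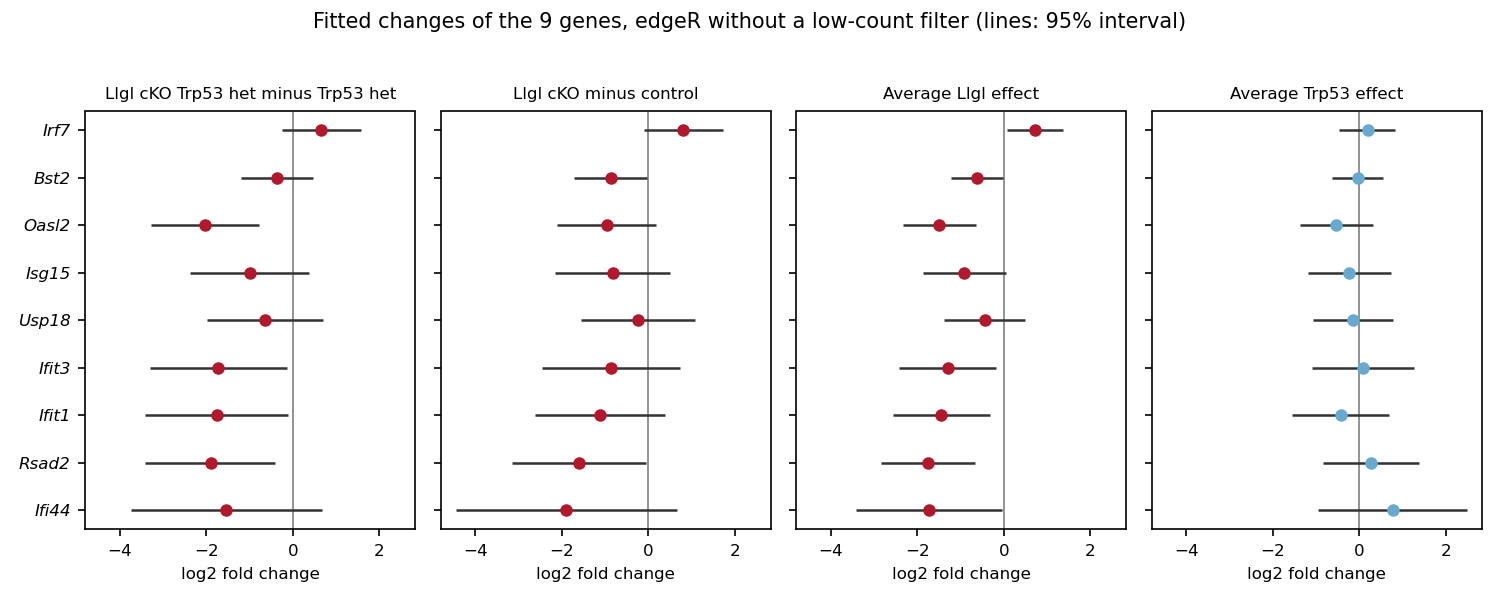
Log2 fold changes of the 9 genes in the edgeR model without a low-count filter, with points for the estimates and lines for their 95% intervals, in the comparisons of Llgl cKO Trp53 het with Trp53 het and of Llgl cKO with control and in the averaged Llgl and Trp53 effects. In the averaged Llgl effect Irf7 lies at 0.73 and the other 8 genes between -1.75 and -0.44, whereas the averaged Trp53 effects scatter about 0.

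The 8 genes other than Irf7 varied together from library to library. Their summed level was 5.17, 4.44 and 4.77 CPM in Llgl cKO Trp53 het libraries and 3.64, 5.25 and 7.66 CPM in Llgl cKO libraries. It was 12.2, 12.1 and 6.24 CPM in Trp53 het libraries and 14.9, 12.8 and 4.35 CPM in control libraries. Trp53 het 1 and 2 and control 1 and 2 were thus high, and Trp53 het 3 and control 3 were within the range of the Llgl cKO groups. Control 1 and Trp53 het 2 were also the shallowest libraries, at 6738720 and 6901424 counts, while Trp53 het 1 and control 2 were of ordinary depth, at 11696252 and 11692573 counts. All 28 pairs among the 8 genes had a positive Pearson correlation of log2(CPM + 0.1) over the 12 libraries, 0.21 to 0.88 with a median of 0.62. After subtraction of group means 25 of the 28 were still positive, with a median of 0.48. The 8 correlations of Irf7 with them ran from -0.54 to -0.09, and after subtraction of group means 3 of the 8 were positive, with a range of -0.34 to 0.34 and a median of -0.09. Because the libraries share groups and the counts are low, these correlations only describe the 12 libraries. Irf7 made up 51.1% to 90.7% of the counts of the 9 genes in a library.

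Genes were ranked by how closely their log2 CPM followed the mean of the 5 tested members over the 12 libraries. Irf7 is among these 5 and correlated negatively with the others (Pearson r -0.52 to -0.17), so the mean mixes opposed patterns. Of 12434 genes compared, those most alike were Epg5, an autophagy gene, with r = 0.97 (Spearman 0.97), Mast4, a kinase gene, with r = 0.93 (0.85) and Kcnk2, a potassium channel gene, with r = 0.93 (0.93). They were followed by Trim47 and Camsap1, each with r = 0.92. None of these 5 belongs to the interferon lists used here. As the highest of 12434 correlations over 12 libraries, these values describe the libraries only.

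Upstream of the 9 genes, almost no interferon transcript was counted. The 11 ligand genes examined had 8 counts in all among 136689531: 5 of Ifnk, the keratinocyte type I interferon, and 1 each of Ifnz, Ifng and Ifnl2. The other 7, including Ifnb1 and 4 Ifna genes, had 0 counts, which allows up to 0.0218 CPM over all libraries. Of the 5 Ifnk counts 1 was in Llgl cKO Trp53 het and 4 were in control libraries. No ligand passed the filter, so none was tested.

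The receptor, sensor and transducer genes were well above the ligands. In the averaged Llgl effect edgeR called 0 of them, against 3.33% of all genes. Of the genes tested, an unadjusted p was below 0.05 for 1 of 6 receptors, 2 of 15 sensors and adaptors and 4 of 9 transducers, against 18.2% of all genes. All 6 receptor genes were tested, with a median log2 fold change of 0. Ifnar1 was at 42.8 to 63.0 CPM over the 12 libraries, and its averaged log2 fold change of 0.15 had a 95% interval of -0.06 to 0.36. Ifngr1 was at 20.7 to 110 CPM with a log2 fold change of 0.31 ± 0.42 (SE, edgeR adjusted p = 0.75). Il10rb, a chain of the type III interferon receptor, had -0.45 ± 0.20 (adjusted p = 0.24), and was called without control 3 (-0.59, adjusted p = 0.045) and without control 3 and Trp53 het 3 (-0.68, adjusted p = 0.0041). Of the 16 sensor and adaptor genes 15 were tested, with a median of -0.09. Ifih1, the RNA sensor MDA5, had -0.68 ± 0.20 (edgeR adjusted p = 0.097), and Tmem173, the adaptor STING of the DNA sensing pathway, had 0.65 ± 0.19 (adjusted p = 0.088). DESeq2 called both (adjusted p = 0.035 and 0.026), and Tmem173 was also called by edgeR without control 3 and Trp53 het 3 (0.79, adjusted p = 0.026). Irf3, the transcription factor activated by these sensors, and Myd88, an adaptor of Toll-like receptors, were the highest of the list at 74.4 to 117 and 37.2 to 62.5 CPM, with log2 fold changes of -0.08 ± 0.11 and -0.04 ± 0.15. The 9 transducer genes had a median of -0.30. Tyk2 was at -0.35 ± 0.12 (edgeR adjusted p = 0.14) and Irf1 at -1.0 ± 0.35 (adjusted p = 0.15), and both were called without control 3 and Trp53 het 3 (-0.48, adjusted p = 0.0078, and -1.33, adjusted p = 0.0088). Jak1 was at 160 to 221 CPM, with a log2 fold change of -0.02 ± 0.09.

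Among the negative regulators Socs3, an inhibitor of cytokine receptor signalling, rose with Llgl loss. It was the single call among 7 tested of 8 genes, against 3.33% of all genes called. Socs3 was at 31.3, 38.5 and 49.7 CPM in Llgl cKO Trp53 het libraries and at 33.9, 32.3 and 33.5 CPM in Llgl cKO libraries, against 22.6, 25.3 and 23.2 CPM in Trp53 het and 29.8, 23.3 and 20.6 CPM in control libraries. All 6 libraries of the Llgl cKO groups were above all 6 of the others, and 2.5% of the genes tested separated the libraries in this way. The log2 fold change was 0.60 ± 0.12 (SE, edgeR adjusted p = 0.025), and the call was lost when any of 7 libraries was left out: Llgl cKO Trp53 het 2 or 3, Llgl cKO 1 or 3, Trp53 het 1 or 2, or control 2 (adjusted p 0.053 to 0.075). The median over the list was -0.03. Samhd1, which depletes nucleotides that viruses need, was at 0.39 ± 0.12 (adjusted p = 0.12). Adar, an RNA-editing enzyme, and Pias1, a SUMO ligase, were at 48.6 to 69.3 and 39.5 to 48.7 CPM, each with a log2 fold change of -0.03.

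Further targets of type I interferon, 33 tested of 39, had a median log2 fold change of -0.23, with 21 lower and 12 higher and a single call, a share close to the 3.33% of all genes called. Parp14, a mono-ADP-ribosyltransferase, fell by 1.01 on the log2 scale (SE 0.24, edgeR adjusted p = 0.045). It was at 4.24, 3.33 and 2.60 CPM in Llgl cKO Trp53 het libraries and 4.19, 4.08 and 3.79 CPM in Llgl cKO libraries, against 8.12, 9.45 and 4.74 CPM in Trp53 het and 9.65, 9.01 and 4.27 CPM in control libraries. The difference was largest in the libraries in which the 8 low members were high, Trp53 het 1 and 2 and control 1 and 2. The groups did not overlap, by a narrow margin at control 3. The call was lost when any of 9 libraries was left out, all but Llgl cKO Trp53 het 1, Trp53 het 3 and control 3 (adjusted p 0.079 to 0.13). Its partner gene Parp9 was at -0.42 ± 0.13 (adjusted p = 0.11; without control 3 and Trp53 het 3 called, -0.50, adjusted p = 0.04). Trim25, a ubiquitin ligase of RNA sensing, was at -0.17 ± 0.14 (adjusted p = 0.59), and Ifitm3, which encodes a membrane protein that blocks viral entry, was at 0.19 ± 0.28 (adjusted p = 0.77).

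Targets of interferon gamma, 22 tested of 31, had a median log2 fold change of -0.40, with 16 lower and 6 higher. Of the 22, 2 were called, against 3.33% of all genes, and 6 had an unadjusted p below 0.05, against 18.2% of all genes. Nlrc5, the transactivator of MHC class I genes, fell by 1.72 on the log2 scale (SE 0.25, edgeR adjusted p = 0.0064). Its level was 2.75, 1.88 and 2.51 CPM in Llgl cKO Trp53 het libraries and 1.79, 5.39 and 5.20 CPM in Llgl cKO libraries, against 12.3, 10.8 and 8.36 CPM in Trp53 het and 9.97, 12 and 8.71 CPM in control libraries. All 6 libraries of the Llgl cKO groups were below all 6 others, Trp53 het 3 and control 3 included. The call held with each of the 12 libraries left out in turn (adjusted p 0.0021 to 0.026), and Nlrc5 was also called in Llgl cKO Trp53 het against Trp53 het (-2.13, adjusted p = 0.029) and against control (-2.10, adjusted p = 0.031). The call against Trp53 het was lost without Llgl cKO Trp53 het 2 or 3, Trp53 het 1 or 2, or control 2 (adjusted p 0.051 to 0.12). That against control was lost without Llgl cKO Trp53 het 2 or 3, Trp53 het 2, or control 1 or 2 (adjusted p 0.056 to 0.14).

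Irgm2, an immunity-related GTPase, fell by 1.48 on the log2 scale (SE 0.35, edgeR adjusted p = 0.043). It was at 0.863, 0.512 and 1.17 CPM in Llgl cKO Trp53 het libraries and 0.550, 0.364 and 0.881 CPM in Llgl cKO libraries, against 2.22, 2.33 and 0.979 CPM in Trp53 het and 2.94, 2.55 and 1.29 CPM in control libraries. Control libraries were all above the Llgl cKO groups, whereas Trp53 het 3 overlapped with them. The call was lost when any library other than Trp53 het 3 and control 3 was left out (adjusted p 0.051 to 0.12). The MHC class I genes that Nlrc5 is known to act on were not called: H2-D1 was at -0.40 ± 0.20 (edgeR adjusted p = 0.33) and B2m at -0.29 ± 0.17 (adjusted p = 0.41).

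**Figure D3:**
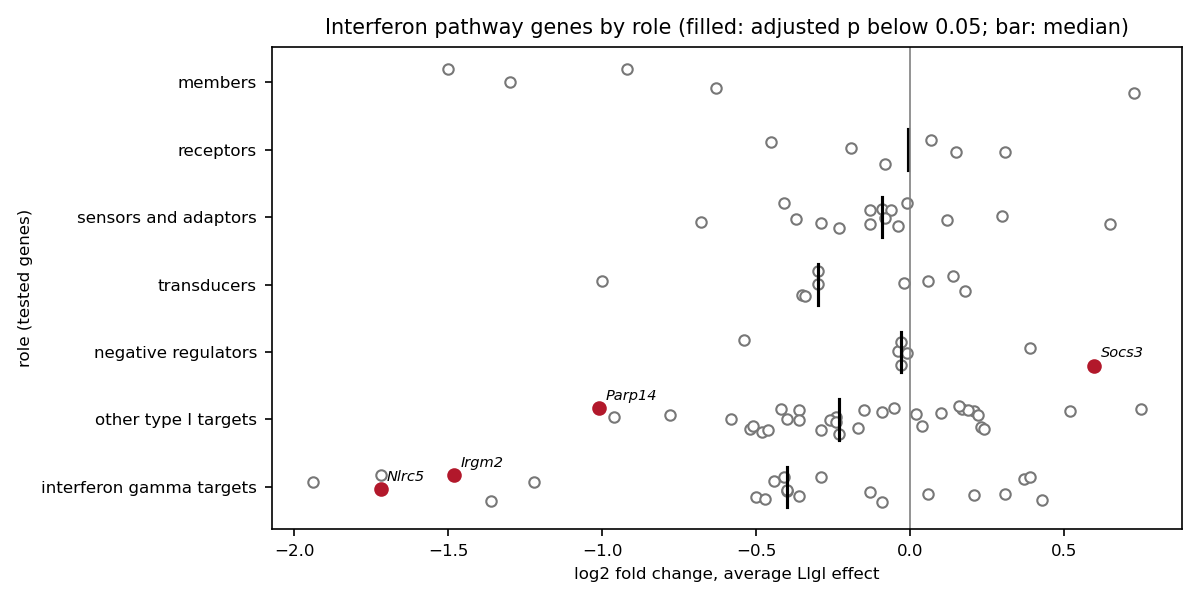
Log2 fold changes in the averaged Llgl effect for the tested members and for the tested genes of each role in the interferon pathway, with a point per gene, a bar at the median of each pathway role and filled points for adjusted p below 0.05. Of the pathway genes Nlrc5, Irgm2 and Parp14 are called lower and Socs3 higher, and the medians run from 0 for receptors to -0.40 for interferon gamma targets.

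**Figure D4:**
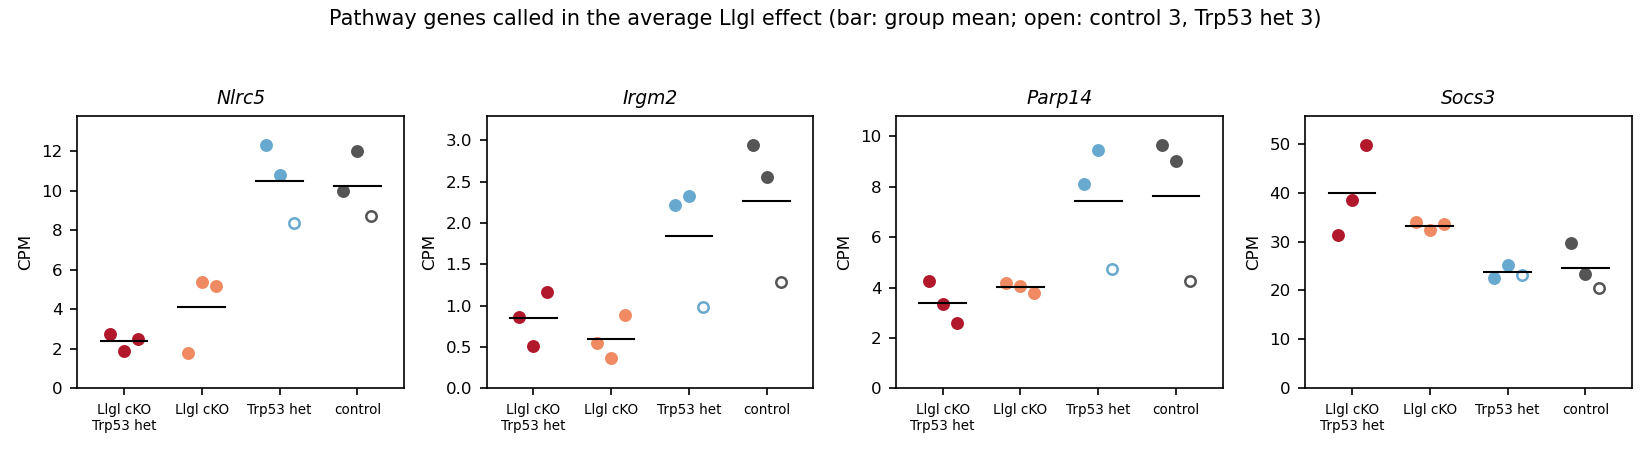
Levels in CPM (linear axes from 0) of the 4 pathway genes called in the averaged Llgl effect, with a point per library, a bar at each group mean and open points for Trp53 het 3 and control 3. For Nlrc5, Parp14 and Socs3 the 6 libraries of the Llgl cKO groups do not overlap with the other 6, whereas for Irgm2 Trp53 het 3, at 0.979 CPM, lies within their range.

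Markers of immune cells were measured beside these genes, since such cells also express interferon targets. All 10 T cell markers were lower with Llgl loss (median log2 fold change -1.70), and 2 of them were called, against 3.33% of all genes. These were Cd3g at -2.32 (edgeR adjusted p = 0.035) and Il2rb at -2.44 (adjusted p = 0.023). Both calls were lost without Llgl cKO Trp53 het 2, Llgl cKO 1, Trp53 het 1 or 2, or control 2, and that of Cd3g also without Llgl cKO Trp53 het 3, Llgl cKO 2 or 3, or control 1 (adjusted p 0.057 to 0.092 over the 2 genes). Their summed level was 5.53 to 19.2 CPM in Llgl cKO Trp53 het, 5.36 to 12.5 CPM in Llgl cKO, 15 to 46.5 CPM in Trp53 het and 22.7 to 33.4 CPM in control libraries. The 8 low members, Nlrc5, Irgm2 and Parp14 were thus lower in the same groups as T cell transcripts, whose part in the result was not tested. The order of single libraries is given as a description only. Llgl cKO Trp53 het 1 had more T cell marker transcripts than Trp53 het 3 (19.2 against 15 CPM). It had less Nlrc5 and, by a narrow margin, less Parp14. T cell markers were lower in Trp53 het 3 than in Trp53 het 1 and 2, as the 8 low members were. Control 3 had 4.35 CPM of the 8 members, within the range of the Llgl cKO groups. Its T cell markers were at 22.7 CPM, above all 6 libraries of those groups. Hair shaft and inner root sheath genes were also lower with Llgl loss, and their part was not tested either. They summed to 143 to 495 CPM in Llgl cKO Trp53 het, 1110 to 3610 CPM in Llgl cKO, 2360 to 6050 CPM in Trp53 het and 1610 to 7460 CPM in control libraries. Adipocyte markers followed the same libraries, with both tested markers, Fabp4 and Retn, called lower (edgeR adjusted p = 0.025 and 0.038), against 3.33% of all genes called. Their list summed to 0.335 to 0.769 CPM in Llgl cKO Trp53 het and 1.67 to 3.57 CPM in Llgl cKO, against 17.4, 13.1 and 2.71 CPM in Trp53 het 1 to 3 and 29.1, 13.3 and 2.02 CPM in control 1 to 3, and their part was not tested. Fibroblast markers summed to more with Llgl loss. They were at 290 to 393 CPM in Llgl cKO Trp53 het and 241 to 333 CPM in Llgl cKO. Trp53 het libraries had 109 to 243 CPM and control libraries 114 to 245 CPM. Of 6 tested, 4 were higher and 2 lower, with 1 called higher, against 3.33% of all genes called. Their part was not tested.

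Langerhans cell and macrophage markers overlapped between all groups, at 155 to 230 CPM in Llgl cKO Trp53 het, 120 to 215 CPM in Llgl cKO, 149 to 222 CPM in Trp53 het and 128 to 233 CPM in control libraries. Of 15 tested 0 were called, against 3.33% of all genes, with a median log2 fold change of -0.12. Cd207, which defines Langerhans cells, was at 1.49 CPM or less in every library. Of the plasmacytoid dendritic cell markers, a cell type known for type I interferon production, 2 of 5 were tested and 0 called, and Siglech was at 1.96 CPM or less. The neutrophil marker Ly6g had 0 counts in all libraries. Mitochondrially encoded transcripts, taken as a sign of RNA quality, summed to 11700 to 16900 CPM in Llgl cKO Trp53 het, 11200 to 13200 CPM in Llgl cKO, 11900 to 13400 CPM in Trp53 het and 8110 to 12900 CPM in control libraries, with 0 of 6 called.

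**Figure D5:**
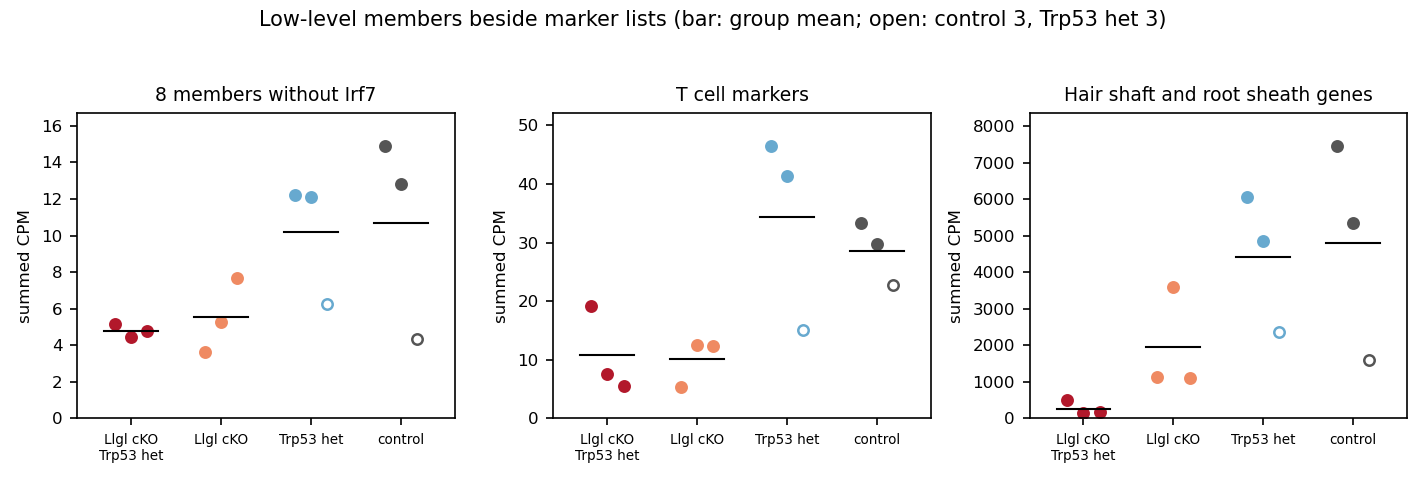
Summed CPM (linear axes from 0) of the 8 members without Irf7, of 10 T cell markers and of 16 hair shaft and root sheath genes, with a point per library, a bar at each group mean and open points for Trp53 het 3 and control 3. In each panel Trp53 het 1 and 2 and control 1 and 2 lie above all libraries of the Llgl cKO groups, and the 2 open points lie below them.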

How the data were processed

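Polyadenylated RNA of newborn mouse epidermis was sequenced from stranded mRNA libraries, per the labels' protocols. The values the authors deposited are whole-number counts of reads per gene, not normalized. STAR, featureCounts 1.6.4, DESeq2 2.11.40.8 and GRCm38 are named in the submitters' processing notes. Annotation release, strand setting and filters are not given in the sources used here. Groups came from the sample labels, and p-values measure the spread between mice.

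Members were matched by exact symbol, with 0 duplicates. The members and the gene lists were chosen with earlier results of these data known. In R 4.3.3, edgeR 4.0.16 scaled libraries by TMM, kept 14582 genes (filterByExpr with the 4 groups, minimum count 10), and fitted a robust quasi-likelihood model to 12 libraries with 8 residual degrees of freedom. The biological coefficient of variation was 23.8%. A call is a Benjamini-Hochberg adjusted p below 0.05 over all genes tested. Standard errors are the size of the log2 fold change divided by the square root of F. Ifit1, Rsad2, Ifi44 and Usp18 did not pass the filter, and their values come from the same model without it (25889 genes). The averaged Llgl effect is the mean of the difference between Llgl cKO Trp53 het and Trp53 het and that between Llgl cKO and control. Exon lengths and positions came from GENCODE vM21 on GRCm38, which matched 45143 of 46078 identifiers. Named pathway genes were the 2 with the smallest p in the averaged Llgl effect and the 2 with the highest CPM in each list, every called gene and every ligand with a count. The model was tested on simulated data.

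No library columns were identical. Same-numbered Trp53 het and control libraries had deviations correlated at 0.62, 0.21 and 0.82 across genes for numbers 1, 2 and 3. The labels name no pairing, and number 2 correlated best with number 1 of the other group. Deviations from a mean of 3 libraries also depend on each other, so these values do not establish pairs. A replicate block changed no call between Trp53 het and control. Alternatives were DESeq2 1.42.0, its size factors, 2 other filters, the replicate block, only the groups compared, each library left out, and control 3 and Trp53 het 3 left out together.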

Additional observations from a re-analysis of the deposited data

How the results depend on the processing

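For the members with a value in a run, directions in the averaged Llgl effect, in Llgl cKO against control, and in Llgl cKO Trp53 het against Trp53 het and against control were the same under each alternative run, reversing in 0 cases. Not every member had a value in every run. With each library left out, Ifit1 and Rsad2 had values in 10 of 12 runs, and Usp18 and Ifi44 had none. DESeq2 and the model without a filter covered all 9 members. Counts of members called moved only in 3 comparisons. The averaged Llgl effect had 1 member called with DESeq2, 0 to 2 with each library left out and 6 without control 3 and Trp53 het 3, and Llgl cKO Trp53 het against Trp53 het and against control had 1 each without those libraries. Counts of all genes called moved more. With DESeq2 they were 115 in Llgl cKO against control (33 in edgeR), 631 in Llgl cKO Trp53 het against control (182), 49 against Llgl cKO (0), 704 against Trp53 het (198) and 1004 in the averaged Llgl effect (485). Without control 3 and Trp53 het 3 the counts in the same order were 413, 1139, 1, 1088 and 2334, with 1 in Trp53 het against control and 2 in the averaged Trp53 effect. With only the groups compared, Llgl cKO Trp53 het had 49 calls against control and 117 against Trp53 het. Leaving out each library in turn gave 15 to 42 calls in Llgl cKO against control, 0 to 1 in Trp53 het against control, 25 to 351 in Llgl cKO Trp53 het against control, 0 to 1 against Llgl cKO, 24 to 322 against Trp53 het and 164 to 697 in the averaged Llgl effect. The cause of these moves was not tested.

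Outside the comparison of Trp53 het with control, same-numbered libraries did not all deviate together (correlations -0.35 to 0.18). Neither there nor within that comparison did every library correlate best with its own number. The replicate block gave 347 calls in Llgl cKO Trp53 het against control and 376 against Trp53 het, called 0 members, and ended the call of Irgm2 (adjusted p = 0.06).

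Reversals were all in comparisons of Trp53 genotype or the interaction, where adjusted p-values were near 1. In Trp53 het against control Oasl2 was at 0.00 in edgeR, 0.01 with DESeq2 and without a filter, 0 with DESeq2 size factors and 0.04 with the replicate block, and Ifit3 was at -0.08 without control 3 and Trp53 het 3. Without those libraries Ifit3 was at -0.20 in the averaged Trp53 effect, and in the interaction Isg15 was at 0.04, Irf7 at 0.05 and Rsad2 at 0. With the block the interaction of Irf7 was 0.04. With each library left out, Trp53 het against control ran from -0.58 to 0.26 for Ifit1, -0.68 to 0.50 for Isg15, -0.08 to 0.41 for Irf7, -0.40 to 0.42 for Oasl2, -0.11 to 0.63 for Rsad2 and -0.67 to 0.18 for Bst2. Llgl cKO Trp53 het against Llgl cKO ran from -1.22 to 0.19 for Ifit3, -0.73 to 0.04 for Isg15, -0.22 to 0.65 for Irf7 and -0.14 to 0.69 for Rsad2. The averaged Trp53 effect ran from -0.35 to 0.49 for Ifit3, -0.49 to 0.09 for Isg15 and -0.22 to 0.20 for Bst2. The interaction ran from -1.03 to 0.02 for Ifit1, -0.81 to 0.38 for Isg15, -0.47 to 0.39 for Irf7 and -0.55 to 0.28 for Rsad2. With a median of at most 5.5 counts per library in 5 of the 9 genes, depth limits what these comparisons can show.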
